A study of Homo sapiens with 32 samples.

Results

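The genes described here are 60 genes of mitosis, the spindle and the kinetochore, listed by name and by role in cell division. All 60 were found among the 48804 genes of the count table. They were followed in MDA-MB-468, a cell line from a triple-negative breast tumor, that is, one described as lacking the estrogen receptor, the progesterone receptor and amplified HER2. Cells were grown in T25 flasks and treated with PBS (control), with 0.5 µM salinomycin (Sal, a polyether antibiotic), with 15 µM dasatinib (Das, an inhibitor of Src kinases) or with both (S + D, 15.5 µM of drug in all), for 24 h or 72 h. Each of the 8 conditions had 4 libraries, described by the study as biological replicates. All are of this 1 line, so the spread between libraries covers at most repeated cultures and not different tumors. In each condition 1 library has no replicate number (the unnumbered library) and the other libraries are replicates 1 to 3.

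Cells enter mitosis when cyclin B accumulates and activates CDK1, with PLK1 and the Aurora kinases acting on centrosomes, spindle and chromosomes. Kinetochores, built on centromeres marked by CENPA, then bind spindle microtubules, and the checkpoint holds the anaphase-promoting complex inactive until every chromosome is attached. Most transcripts of these proteins accumulate in late S phase, G2 and M, when the MuvB complex works with MYBL2 and FOXM1, and the same genes are repressed by MuvB in the DREAM complex in resting and in G1 cells. In triple-negative breast tumors, whose cells divide often, they are among the commonly used proliferation markers.

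Total counts were between 25692561 and 42769687 per library, and every one of the 60 genes passed the filter on low counts at both time points, which uses the counts of all groups. Levels below are CPM, counts scaled to the size of each library. The markers of the line were present in every library, with EGFR at 4807 CPM in the 24 h controls, and the 8 epithelial and line markers summed to between 5579 and 13469 CPM. The sum was lower in treated groups. It was 12297 to 13469 CPM in the 72 h controls and 5579 to 7056 CPM in S + D at 72 h. Of these 8 markers 5 were lower with Sal at 72 h, KRT5 first among them (log2 fold change -3.61). The keratins followed the mitotic genes only in part. By group means KRT5, KRT8, KRT18 and KRT19 were below the control with each drug alone. KRT7 was lower with Sal but not with Das (1584 CPM against 1287 in the controls at 24 h, 1310 against 1260 at 72 h). At 72 h KRT5 was higher with S + D (103 CPM) than with Sal (43.99 CPM), and so was KRT7, while KRT8, KRT18 and KRT19 were lower. The part of the keratins in the results was not tested. Of the receptors, PGR was at 0 CPM in the 24 h controls, ESR1 was at 5.42 and ERBB2 at 115 CPM. Markers of other cell types summed to between 29.7 and 128 CPM, mostly COL1A1 and CD14, with CD3E at 0 in the 24 h controls. The unnumbered libraries stood apart from the numbered ones in most groups, and replicate 3 of Das at 72 h stood apart from the other Das libraries, so both are given separately below.

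**Figure D1:**
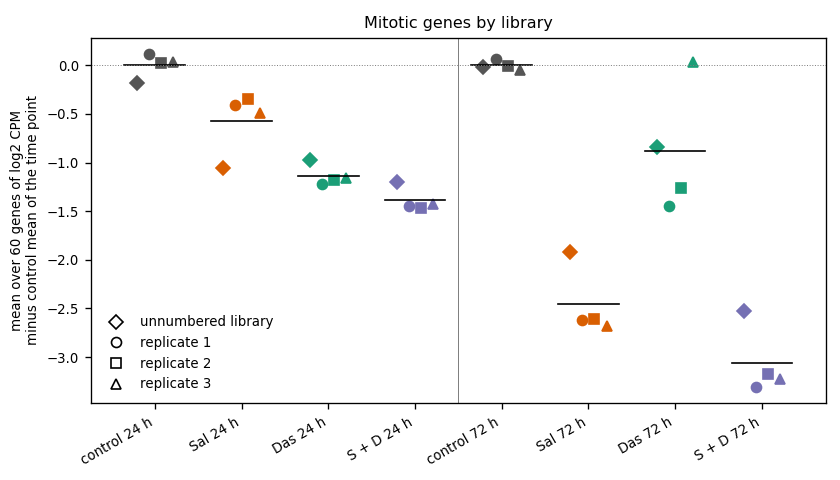
The vertical axis is the mean over the 60 genes of log2 CPM, less the control mean of the same time point, for each of the 32 libraries (symbols by replicate, colours by treatment, horizontal lines at group means). The Sal 72 h libraries sat at -1.92 (unnumbered), -2.62, -2.61 and -2.68, while Das 72 h replicate 3 lay among the controls.

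The sequences around the starts of these genes were read, since 59 of the 60 fell with Sal and with S + D at 72 h. RefSeq promoter windows of GRCh38.p14, each with 250 bases before and 50 bases after 1 start site per gene, were found for 49 of the 60. For SMC2, SGO1 and AURKB that site lies 6046, 680 and 350 bases inside the annotated gene, and for the other 46 it is the gene's first base. The other 11 were AURKA, PBK, BUB3, TTK, UBE2C, BIRC5, CENPM, KNL1, TPX2, RACGAP1 and FOXM1. The searched motifs were the cell cycle homology region (CHR, TTTGAA, or TTTAAA in its other form), to which MuvB binds, and the CCAAT box, to which NF-Y binds, each on both strands. TTTGAA was present in 34 of the 49 windows (69.4%), against 15.4% of all 27195 promoter windows of the same length and 1 of 30 (3.3%) DNA replication genes. It lay within 50 bases of the start in 57.1% of the members' windows, in 4.7% of all windows and in 0 of the 30 replication windows. Without SMC2, SGO1 and AURKB these shares of the members' windows were 71.7% and 58.7%. TTTAAA was found in 30.6% of the members' windows and in 12.4% of all windows. The CCAAT box was found in 69.4% of the members' windows, in 18 of the 30 replication windows and in 35.7% of all windows. At least 2 CCAAT boxes were present in 42.9% of the members' windows, 33.3% of the replication windows and 11.3% of all windows. For either CHR form together with a CCAAT box these shares were 59.2%, 6.7% and 9.5%. The E2F core GCGGGAA was rarer among the members (10.2%) than among the replication genes (46.7%), and 6.6% of all windows held it. The GC box GGGCGG was in 75.5% of the members' windows, in 70.0% of the replication windows and in 44.7% of all windows. A match describes letters only.

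The windows below show how the members resemble each other and where they part. CCNB1, CCNB2, PLK1, KIF20A, SPC25 and MKI67 were among the genes that fell by over 2 on the log2 scale with Sal at 72 h, MAD2L1 fell least among the members with a window, and MYBL2 fell strongly with none of the marked motifs in the stretch shown. Each is given 5′ to 3′ on the gene's strand, from 120 bases before the start to 30 bases from it on, with CHR forms and CCAAT boxes (ATTGG where the box is on the other strand) in capitals.
CCNB1, chr5:69167030-69167179 (+): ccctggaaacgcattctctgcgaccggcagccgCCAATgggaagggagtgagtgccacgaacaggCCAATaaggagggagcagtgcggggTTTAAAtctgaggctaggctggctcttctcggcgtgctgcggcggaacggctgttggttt
CCNB2, chr15:59105026-59105175 (+): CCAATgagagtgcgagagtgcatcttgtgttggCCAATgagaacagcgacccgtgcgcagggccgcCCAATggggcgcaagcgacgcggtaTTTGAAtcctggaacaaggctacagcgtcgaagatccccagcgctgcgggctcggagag
PLK1, chr16:23678769-23678918 (+): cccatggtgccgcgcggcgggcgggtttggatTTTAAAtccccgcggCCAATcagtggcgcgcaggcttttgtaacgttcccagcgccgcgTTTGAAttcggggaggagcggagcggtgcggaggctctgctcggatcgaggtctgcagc
KIF20A, chr5:138178992-138179141 (+): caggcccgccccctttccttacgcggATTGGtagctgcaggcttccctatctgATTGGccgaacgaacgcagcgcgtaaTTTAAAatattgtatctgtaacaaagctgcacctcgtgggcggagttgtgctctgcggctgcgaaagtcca
SPC25, chr2:168890401-168890550 (-): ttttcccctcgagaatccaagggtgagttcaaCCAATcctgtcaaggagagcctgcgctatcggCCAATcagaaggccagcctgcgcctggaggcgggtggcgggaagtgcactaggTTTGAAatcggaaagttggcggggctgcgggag
MKI67, chr10:128126394-128126543 (-): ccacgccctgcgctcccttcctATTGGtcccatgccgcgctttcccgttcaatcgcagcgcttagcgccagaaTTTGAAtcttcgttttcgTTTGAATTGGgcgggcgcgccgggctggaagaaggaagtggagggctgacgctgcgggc
MAD2L1, chr4:120066819-120066968 (-): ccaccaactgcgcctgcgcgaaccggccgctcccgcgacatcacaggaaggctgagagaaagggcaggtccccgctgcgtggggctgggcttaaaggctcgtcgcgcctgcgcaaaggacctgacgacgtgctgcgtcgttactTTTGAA
MYBL2, chr20:43666994-43667143 (+): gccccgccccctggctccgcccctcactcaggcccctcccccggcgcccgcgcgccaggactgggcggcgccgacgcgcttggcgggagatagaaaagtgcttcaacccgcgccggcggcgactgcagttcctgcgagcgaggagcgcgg
In CCNB2 and PLK1 the TTTGAA began 29 bases before the start, and in CCNB1 a TTTAAA began 30 bases before it. CCNB2 held 3 CCAAT boxes in this stretch. MKI67 held TTTGAA at 47 and at 29 bases before the start, the nearer one sharing its last base with a CCAAT box on the other strand. In MAD2L1 the TTTGAA lay 24 bases after the start. The 34 members with TTTGAA had a median log2 fold change of -2.63 with Sal at 72 h (range -3.38 to -0.79). The 15 without it had a median of -2.69 (range -3.66 to -2.00). Some of these 15, such as CCNB1 and KIF20A, held the TTTAAA form. The medians lay close together, but this split does not divide members with a CHR from those without. The difference was not tested.

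In untreated cells at 24 h the levels per kilobase of exon ran from 8.25 CPM per kb for SGO1, the protector of centromeric cohesion, to 195 for CDC20, which activates the anaphase-promoting complex. MYBL2 (146 ± 3.44 CPM per kb, SD, n = 4), MELK (131 ± 8.72), PTTG1 (127 ± 14.8), UBE2C (124 ± 6.80) and TPX2 (122 ± 18.6) came next, and the neighbours from MELK to TPX2 lay within each other's SD. At 72 h the controls were led by MYBL2, MELK and CDC20. For several members the exons overlap those of other genes on GRCh37, by 86.8% of the exon bases for NUSAP1 (OIP5 and OIP5-AS1), 61.9% for PRC1 (PRC1-AS1) and 33.7% for NCAPG (LCORL), and since the strand setting of the counting is not given in the sources used here, reads of such pairs cannot be told apart.

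Salinomycin alone at 72 h lowered 59 of the 60 genes, with a median log2 fold change of -2.57, and their summed level was 19.8% of the control (1594 ± 348 against 8067 ± 265 CPM, SD, n = 4). A gene was called at an adjusted p under 0.01 (the quasi-likelihood test of edgeR, adjusted by Benjamini-Hochberg over all 16682 genes tested). Of all genes 26.8% were called lower and 26.3% higher, and 0 of the 60 were called higher. With an absolute log2 fold change above 1.5 in addition, 54 of the 60 genes were called lower, against 9.45% of all genes. For 59 members every Sal library lay below every control library, a pattern found in 29.6% of all genes. The median over all genes tested was 0.00, and among the numbered libraries alone 59 members were called, with a median of -2.92. In bulk RNA, fewer cells of a kind (here dividing cells) and less RNA per cell cannot be told apart.

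All 11 kinases, cyclins and phosphatases of mitotic entry fell with Sal at 72 h (median -2.61). For CDK1, the kinase that drives entry, the control libraries had 174, 159, 149.8 and 131 CPM (unnumbered library, then replicates 1 to 3, the order kept below) and the Sal libraries 43.6, 18.4, 18.1 and 18.2 CPM. The groups did not overlap, the unnumbered Sal library was the highest of the Sal group, and the log2 fold change was -2.66 ± 0.39 SE, adjusted p = 1.5e-05. CCNB1, its cyclin B1 partner, went from 157, 115, 114 and 104 CPM to 37.2, 17.6, 19.3 and 19.6 CPM, a log2 fold change of -2.40 ± 0.33 SE, adjusted p = 7.6e-06. PLK1, the kinase of centrosome maturation and bipolar spindles, fell furthest of the 11, from 119, 138, 135 and 154 CPM to 18.6, 13.97, 11.2 and 9.18 CPM (log2 fold change -3.38 ± 0.33 SE, adjusted p = 1.9e-07). AURKA, the Aurora kinase of centrosomes and spindle poles, fell least, from 81.4, 93.5, 83.9 and 80.5 CPM to 59.4, 39.7, 35.6 and 39.9 CPM (log2 fold change -0.97 ± 0.18 SE, adjusted p = 1.4e-04). PLK1 thus kept a far smaller part of its control level than AURKA did, though both groups of Sal libraries lay below all controls. The others of this role lay between them, CDC25C, CDC25B and CCNB2 at -2.69, -2.66 and -2.61 and PLK4, which licenses centriole duplication, at -2.21.

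Of the 5 spindle checkpoint genes 4 fell with Sal at 72 h, and BUB3 was the 1 member of the 60 that was not called. BUB3 (GRCh37 chromosome 10, 124913918 to 124929983), a WD-repeat protein that brings BUB1 and BUBR1 to kinetochores, had 143, 128, 123 and 115 CPM in the control libraries and 144, 119, 130.01 and 133 CPM in the Sal libraries. These ranges overlapped, and the log2 fold change was 0.03 ± 0.10 SE, adjusted p = 0.79. Its binding partner BUB1 fell from 138, 169, 158 and 150.4 CPM to 36.7, 27.8, 28.8 and 28.2 CPM, a log2 fold change of -2.36 ± 0.25 SE, adjusted p = 5.4e-07. BUB1B, which encodes BUBR1, went from 89.02, 99.98, 94.6 and 91.1 to 20.6, 16.4, 15.7 and 15.5 CPM and was the lowest of this role at -2.47 ± 0.29 (SE). The kinase TTK, which starts checkpoint signaling, fell by less (-1.36), and MAD2L1, which with BUBR1 and BUB3 forms the inhibitor of CDC20, fell by the least of the 59 called genes. MAD2L1 had 49.2, 46.7, 46.8 and 44.6 CPM in the controls and 24.5, 28.5, 30.1 and 26.8 CPM with Sal, no overlap, and a log2 fold change of -0.79 ± 0.15 SE, adjusted p = 1.5e-04.

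Every gene of anaphase control and of the chromosomal passenger complex was lower with Sal at 72 h. ESPL1, the protease separase that cleaves cohesin, went from 62.3, 42.2, 43.8 and 55.1 CPM to 11.6, 4.10, 3.65 and 3.08 CPM (log2 fold change -3.18 ± 0.47 SE, adjusted p = 1.3e-05) and was the lowest of its role. SGO1 fell least of its role, from 20.2, 25.1, 23.1 and 19.5 to 6.61, 4.87, 5.98 and 4.71 CPM, at -2.00 ± 0.24 (SE). CDC20 was at -2.70 and PTTG1, the securin that holds separase inactive, at -3.03, so inhibitor and protease both fell. AURKB, the kinase of the passenger complex that corrects wrong attachments, had 52.3, 47.3, 45.6 and 47.96 CPM in the controls and 10.1, 5.15, 4.85 and 3.37 CPM with Sal, without overlap and with a log2 fold change of -3.05 ± 0.39 SE, adjusted p = 3.2e-06. INCENP, the scaffold of that complex, fell least of its 4 genes, from 113, 118, 116 and 139.5 to 35.3, 34.2, 25.2 and 23.98 CPM (-2.05 ± 0.25, SE). BIRC5 (survivin) and CDCA8 (borealin), which target the complex to centromeres, were at -2.65 and -2.24.

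All 9 centromere and kinetochore genes and all 8 mitotic kinesins were lower with Sal at 72 h, at medians of -2.70 and -2.31. CENPA, the histone H3 variant that marks centromeres, went from 43.8, 40.01, 41.3 and 42.04 CPM to 10.4, 3.85, 4.82 and 4.36 CPM (log2 fold change -2.84 ± 0.40 SE, adjusted p = 8.2e-06). SPC25 (GRCh37 chromosome 2, 169690642 to 169769881), a subunit of the NDC80 complex that grips microtubules, fell furthest of its role, from 29.7, 38.8, 36.5 and 32.4 CPM to 5.77, 2.94, 2.59 and 2.23 CPM, at -3.35 ± 0.43 (SE). CENPM, a centromere protein, fell least of the 9, from 22.3, 14.1, 14.2 and 16.8 CPM to 7.62, 4.69, 3.79 and 3.26 CPM (-1.81 ± 0.31, SE). None of these groups overlapped, and in all 3 genes the unnumbered library was the highest of the Sal group. Of the 4 subunits of the NDC80 complex, NDC80 was at -2.70, NUF2 at -2.08 and SPC24 at -2.505. KIF20A (GRCh37 chromosome 5, 137514408 to 137523412), the kinesin that carries the passenger complex to the midzone, had the lowest fold change of all 60 genes. It went from 177, 189, 177 and 183 CPM to 26.7, 12.4, 9.96 and 8.68 CPM, a log2 fold change of -3.66 ± 0.45 SE, adjusted p = 2.2e-06. KIF11, the motor that pushes spindle poles apart, fell least of the kinesins, from 108, 133, 118 and 109 to 45.3, 43.03, 45.8 and 45.8 CPM (-1.40 ± 0.20, SE), with all 4 Sal libraries close together.

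The 7 genes of spindle assembly and the midzone, the 3 of cytokinesis, the 6 of chromosome structure and the transcription factors MYBL2 and FOXM1 were likewise all called lower with Sal at 72 h. TPX2, which activates AURKA and nucleates microtubules, fell least of the spindle genes, from 235, 295, 273 and 265 CPM to 88.8, 69.4, 65.8 and 67.1 CPM (log2 fold change -1.89 ± 0.23 SE, adjusted p = 1.8e-06), and DLGAP5, which stabilizes kinetochore fibers, fell most, from 94.1, 118, 111 and 98.4 to 22.9, 12.01, 13.9 and 14.3 CPM (-2.76 ± 0.31, SE). In cytokinesis, ANLN (anillin, a scaffold of the contractile ring) went from 306, 384, 339.5 and 319 to 65.2, 43.9, 42.9 and 41.8 CPM (-2.82 ± 0.32, SE). RACGAP1, a subunit of centralspindlin, went only from 118, 125, 113 and 115 to 71.02, 55.99, 60.5 and 54.7 CPM (-0.97 ± 0.17, SE). Anillin transcripts thus fell to a much smaller part of the control than those of RACGAP1, and neither gene's groups overlapped. TOP2A, the topoisomerase that untangles sister chromatids, had 443, 437, 423 and 389 CPM in the controls and 83.3, 46.6, 48.8 and 51.4 CPM with Sal (log2 fold change -2.89 ± 0.34 SE, adjusted p = 1.5e-06). MKI67, which encodes the proliferation marker Ki-67, fell most of the structure genes, from 339, 391, 349 and 409.9 to 58.8, 35.9, 30.9 and 35.1 CPM (-3.23 ± 0.40, SE), and the condensin subunit SMC2 least, from 85.5, 97.5, 92.3 and 84.7 to 24.4, 21.7, 24.4 and 26.1 CPM (-1.91 ± 0.21, SE).

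By median the transcription factors fell furthest of the 10 roles, at -3.29. MYBL2 went from 295, 295, 294 and 348 CPM to 63.6, 26.8, 17.8 and 15.2 CPM (log2 fold change -3.33 ± 0.44 SE, adjusted p = 4.8e-06) and FOXM1 from 122, 143, 144 and 165 CPM to 26.1, 14.99, 10.9 and 9.42 CPM (log2 fold change -3.24 ± 0.37 SE, adjusted p = 9.4e-07). In both genes the unnumbered library was the highest of the Sal group and far below the lowest control.

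**Figure D2:**
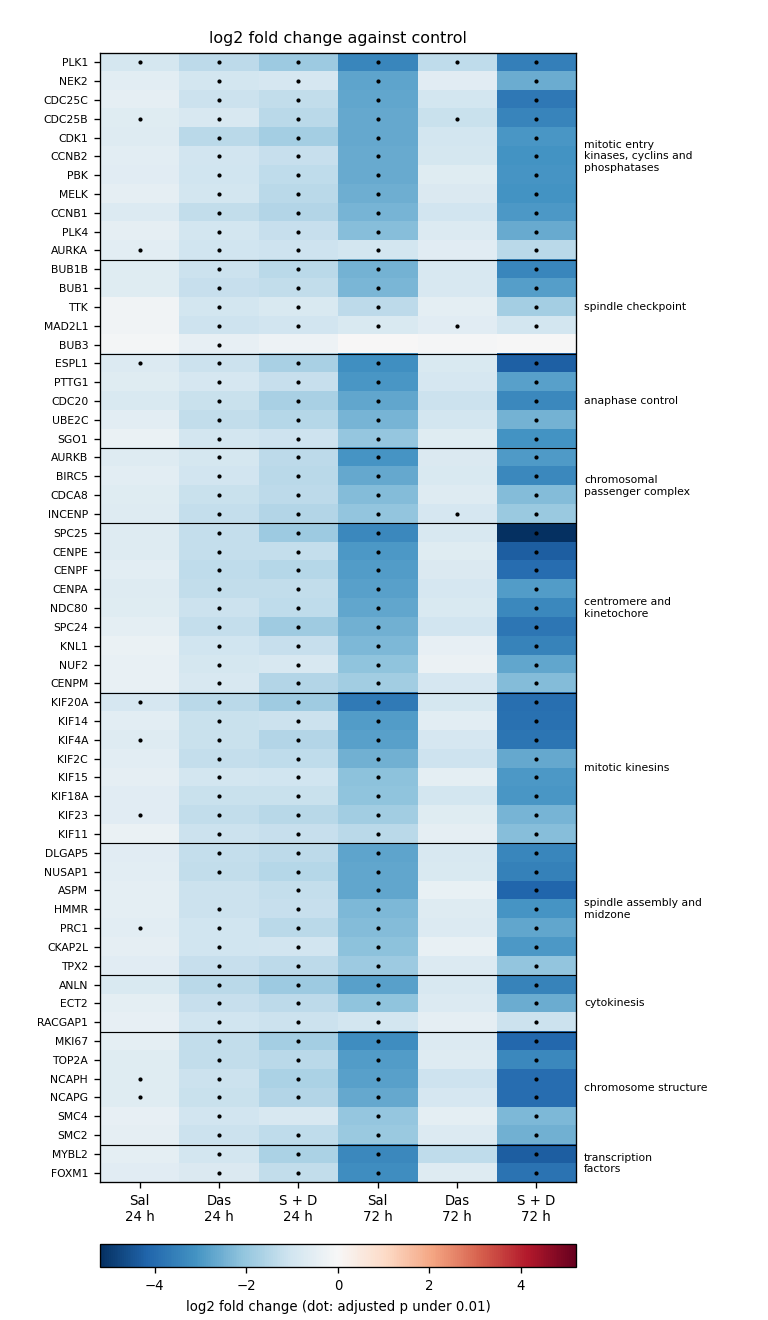
Rows are the 60 genes grouped by role and ordered by the Sal 72 h value, columns are the 6 treatments against the control of their time point, colour is the log2 fold change from -5.2 to 5.2 and a dot marks an adjusted p under 0.01. BUB3 stayed pale in each 72 h column, and SPC25 with S + D at 72 h was the darkest cell (-5.17).

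At 24 h salinomycin had lowered the genes by less. The median log2 fold change was -0.55 and 10 of the 60 genes were called lower (2.23% of all 16357 genes tested), namely PLK1, CDC25B, AURKA, ESPL1, KIF20A, KIF4A, KIF23, PRC1, NCAPG and NCAPH. All 60 had fold changes below 0, from -0.91 for PLK1 to -0.10 for BUB3, and 52 had an unadjusted p under 0.05. The share of all genes at an unadjusted p was not computed. Such counts, here and below, are thus no result about the 60 genes. For 39 of the 60 genes the 4 Sal libraries lay below all 4 control libraries, as did 11.2% of all genes. PLK1 had 194, 277, 272 and 278 CPM in the controls and 82.04, 163, 142 and 157 CPM with Sal, and the unnumbered library was the lowest of both groups. MKI67, which did not pass (log2 fold change -0.53 ± 0.31 SE, adjusted p = 0.3), had 513, 808, 792 and 805 CPM against 172, 658, 643 and 555 CPM. The highest Sal library was above the lowest control, which was the unnumbered one. Among the numbered libraries every Sal value was below every control, and the unnumbered Sal library was below the unnumbered control. For FOXM1 the values were 187, 261, 258 and 252 CPM and 100.4, 192, 172 and 174 CPM (-0.59 ± 0.16 SE, adjusted p = 0.02), again with overlap through the unnumbered control.

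The count at 24 h depended on how the unnumbered libraries were handled. Their mean over the 60 genes was -1.05 below the control with Sal, against -0.41, -0.35 and -0.50 in replicates 1 to 3. Among the numbered libraries alone 56 genes were called lower with Sal (10.9% of all genes), at a median of -0.47, and with the replicate number as a block 40 were called (8.71%). Without control replicate 1, 2 or 3 the count was 3, 3 or 2, and without Sal replicate 3 it was 6. A term for the unnumbered libraries gave a higher count than the main fit, as given in the last section.

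Dasatinib alone at 24 h lowered 59 of the 60 genes, with a median of -1.12, where 6.88% of all genes were called lower. Every member had all 4 Das libraries below all 4 controls, as did 15.7% of all genes. ASPM, which holds spindle poles together, was not called (log2 fold change -1.14 ± 0.31 SE, adjusted p = 0.014), with 215, 337, 313 and 305 CPM in the controls and 84.4, 135, 152 and 154 CPM with Das. The range was narrow, from -1.40 for ANLN to -0.41 for BUB3, so no gene reached the second cutoff of 1.5. CDK1 went from 234, 232, 213 and 209 CPM to 114, 67.8, 79.1 and 74.1 CPM, a log2 fold change of -1.38 ± 0.18 SE, adjusted p = 4.7e-05. BUB3, not called with Sal, fell with Das from 174, 165, 159 and 163 CPM to 138, 113, 124 and 115 CPM (-0.41 ± 0.08 SE, adjusted p = 0.0014). MAD2L1, also among the least affected by Sal, had 56.9, 65.9, 66.8 and 64.6 CPM in the controls and 35.1, 29.97, 27.6 and 26.3 CPM with Das (-1.07 ± 0.12 SE, adjusted p = 9.8e-06). Among the numbered libraries alone all 60 genes were called lower (18.7% of all genes), at a median of -1.22.

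Dasatinib at 72 h gave a divided picture, since 1 of its 4 libraries did not follow the others. Over all 4 libraries 4 of the 60 genes were called lower (PLK1, CDC25B, MAD2L1 and INCENP), a smaller share than the 9.36% of all genes. At an unadjusted p under 0.05 there were 48, and the median was -0.76. PLK1 had 119, 138, 135 and 154 CPM in the controls and 54.7, 31.6, 33.1 and 101 CPM with Das (-1.32 ± 0.30 SE, adjusted p = 0.003), and replicate 3 was the highest Das library though still below every control. MKI67 had 339, 391, 349 and 409.9 CPM in the controls and 167, 116, 139 and 479 CPM with Das (-0.73 ± 0.37 SE, adjusted p = 0.13), and there replicate 3 lay above every control. In TOP2A, with 259, 147, 173 and 487 CPM in the Das libraries, and in FOXM1, with 79.9, 51.1, 59.3 and 175 CPM, replicate 3 was again above all controls. Replicate 3 was the highest of the 4 Das libraries in 60 of the 60 genes. It lay above every control in 19, within the range of the controls in 26 and below every control in 15. In 15 genes all 4 Das libraries thus lay below all controls (14.7% of all genes). For the other counts of replicate 3 the share of all genes was not computed, so they describe these 60 genes only. The median over the 60 genes against the control mean was 0.06 on the log2 scale in replicate 3 and -0.86, -1.50 and -1.29 in the unnumbered library and replicates 1 and 2.

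Without replicate 3, 50 of the 60 genes were called lower with Das at 72 h (13.2% of all 16963 genes tested), at a median of -1.15, and the 3 remaining libraries lay below every control in 59 genes, as they did in 22.8% of all genes. The genes that then still did not pass were BUB3, PBK, CDC20, ESPL1, AURKB, BIRC5, CENPA, CENPM, NUF2 and KIF14. CDC20, for example, was then at -1.42 on the log2 scale (adjusted p = 0.011). The count of 4 was moved by other libraries too, since it was 1 without any of the 4 control libraries, 2 without the unnumbered Das library and 0 without replicate 1 or replicate 2 of Das. With a term for the unnumbered libraries, which deviated together at this time too, 17 were called (15.5% of all genes), and among the numbered libraries alone 4 (11.5%). The shift of other genes was also smaller in replicate 3. The 164 genes outside these lists that Das lowered past both cutoffs at 24 h had a median of -2.02 in it, against -2.47, -2.85 and -2.70 in the other Das libraries, and the 241 genes that Das raised had 1.04 against 1.97, 1.74 and 1.72. The 33 DNA replication genes were near the control in it as well, at a mean of -0.19 on the log2 scale against -0.75, -1.12 and -1.08. In replicate 3 both of these cell cycle lists were thus near the control level. The genes picked as moved past both cutoffs at 24 h stayed shifted in it, by less than in the other Das libraries. No member had passed both cutoffs with Das at 24 h, so those sets are of stronger responders and are not matched to the members. What set this library apart was not tested.

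**Figure D3:**
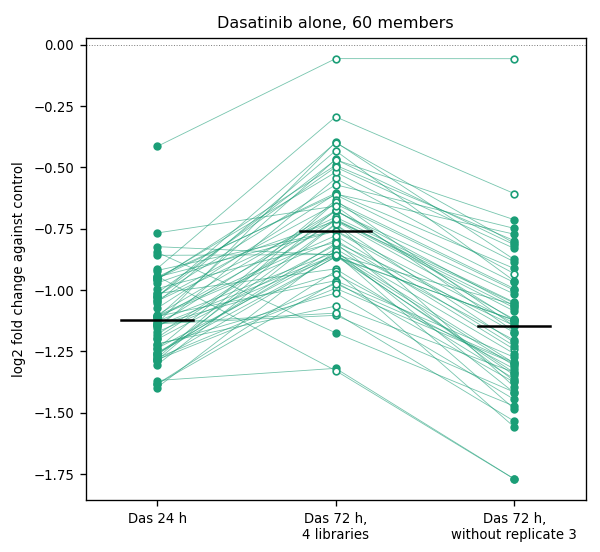
Each line is 1 of the 60 genes, with its log2 fold change for Das against control at 24 h, at 72 h over all 4 libraries and at 72 h without replicate 3 (filled circles, adjusted p under 0.01; black bars, medians of -1.12, -0.76 and -1.15). The medians at 24 h and at 72 h without replicate 3 lay close together, and the lines bend upward where replicate 3 is included.

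The combination at 24 h lowered 58 of the 60 genes (16.5% of all genes), with a median of -1.35, and 17 of them also passed the second cutoff (2.93% of all genes). BUB3 (-0.27, adjusted p = 0.013) and the condensin subunit SMC4 (-0.84, adjusted p = 0.012) did not pass. All 60 genes had their S + D libraries below all controls, against 24% of all genes. KIF20A had 268, 361, 341 and 346 CPM in the controls, 101, 214, 209.7 and 198 CPM with Sal, 137, 118, 119 and 123 CPM with Das and 98.04, 84.9, 83.8 and 86.3 CPM with S + D. The S + D libraries were the lowest set, each below every Das library. Against Sal alone 43 genes were lower at 24 h (median -0.78; 7.06% of all genes were called lower), and 60 among the numbered libraries alone (median -1.05; 23% of all genes). That count was 27 without S + D replicate 1 and 25 without S + D replicate 2. Against Das alone 2 of the 60 genes were called lower, a smaller share than the 4.46% of all genes. They were MYBL2 (-0.72 ± 0.12 SE, adjusted p = 0.0011) and the condensin subunit NCAPH (-0.52 ± 0.12 SE, adjusted p = 0.0076). The median was -0.21, and 18 genes had an unadjusted p under 0.05. MYBL2 had 257, 196, 189.97 and 189 CPM with Das and 160.1, 111, 115 and 115 CPM with S + D, without overlap. The count against Das was 37 among the numbered libraries alone (19.4% of all genes), 10 with the replicate number as a block (11.2%) and 5 without the unnumbered S + D library. It was 1 without the unnumbered library or replicate 1 or 3 of Das, and 1 without any numbered S + D replicate.

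At 72 h the combination had the lowest group mean of all 8 conditions in 55 of the 60 genes. This order of means was not tested, and its share of all genes was not computed. Against the control S + D lowered 59 of the 60 (27.9% of all genes), with a median of -3.06, and 56 passed both cutoffs (10.5% of all genes). The summed level was 1156 ± 244 CPM (SD, n = 4), or 14.3% of the control. In 59 genes every S + D library was below every control, as in 30.9% of all genes. SPC25 had 29.7, 38.8, 36.5 and 32.4 CPM in the controls and 1.80, 0.8, 0.759 and 0.477 CPM with S + D, the largest fall of the 60 genes (-5.17 ± 0.48 SE, adjusted p = 1.1e-07). MKI67 fell to 29.2, 11.3, 26.9 and 21.7 CPM (-4.08 ± 0.41 SE, adjusted p = 2.5e-07), ESPL1 to 4.46, 2.08, 2.38 and 1.998 CPM (-4.23 ± 0.49 SE, adjusted p = 1.1e-06) and FOXM1 to 12.997, 7.52, 9.58 and 10.1 CPM (-3.85 ± 0.38 SE, adjusted p = 1.8e-07). In all 4 genes the unnumbered library was the highest of the S + D group and far below the controls. BUB3 was again not called, with 135, 139.6, 117 and 119 CPM and a log2 fold change of -0.01 ± 0.10 SE, adjusted p = 0.92, and RACGAP1 (-1.10), MAD2L1 (-0.95) and AURKA (-1.40) fell least among those called.

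**Figure D4:**
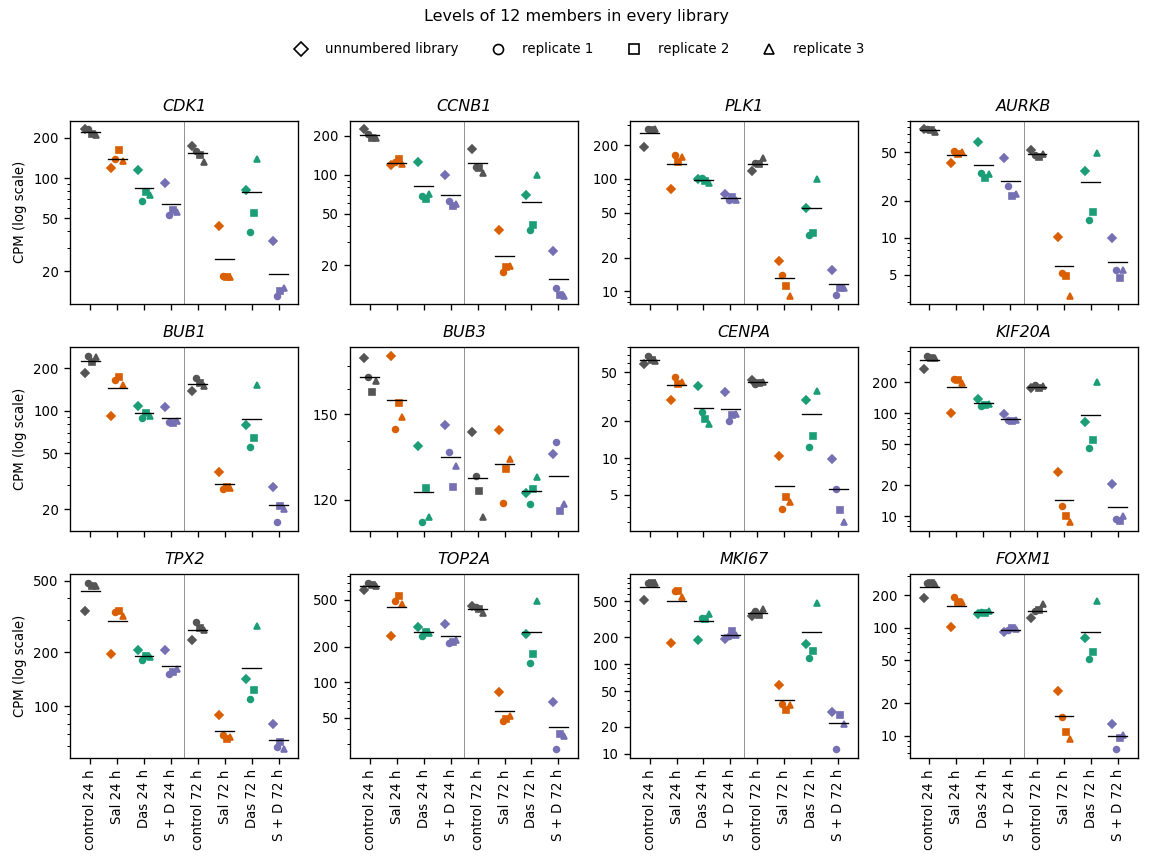
CPM of 12 of the genes in every library on a log axis whose range differs by panel, with symbols by replicate, colours by treatment and lines at the group means. BUB3 spans a narrow range, from 113 to 175 CPM over all 32 libraries, while the 11 other genes drop with Sal and with S + D at 72 h and Das 72 h replicate 3 sits at or near the controls.

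Whether dasatinib added to salinomycin at 72 h was tested gene by gene. The median of S + D against Sal was -0.62, and 30 genes had an unadjusted p under 0.05, a count without its share of all genes. At an adjusted p under 0.01, 1 was called lower (1.59% of all genes), ASPM. In this fit the share of members called was thus close to that of all genes, and the count does not set them apart. ASPM had 31.1, 21.3, 24.8 and 27.4 CPM with Sal and 12.97, 5.99, 9.74 and 10.5 CPM with S + D, without overlap (-1.41 ± 0.29 SE, adjusted p = 0.0061). SPC25, with 5.77, 2.94, 2.59 and 2.23 CPM and 1.80, 0.8, 0.759 and 0.477 CPM, had the lowest fold change but a wider error (-1.82 ± 0.46 SE, adjusted p = 0.021). CENPE, the kinesin that congresses chromosomes, was at -1.29 ± 0.30 SE, adjusted p = 0.013. The roles differed in their medians, from -1.05 for the centromere and kinetochore genes and -0.83 for the kinesins to 0.06 for the passenger complex. AURKB had 10.1, 5.15, 4.85 and 3.37 CPM with Sal and 9.94, 5.44, 4.71 and 5.46 CPM with S + D (0.12 ± 0.38 SE, adjusted p = 0.89), INCENP 35.3, 34.2, 25.2 and 23.98 and 41.2, 21.3, 33.3 and 32.5 CPM (0.11 ± 0.24 SE, adjusted p = 0.83) and CDCA8 a log2 fold change of 0.00 ± 0.29 (SE). PTTG1 (0.21 ± 0.28) and NEK2, a centrosome kinase (0.16 ± 0.28) (SE), were also above 0, and for these 5 genes the SE was larger than the difference. The difference between roles was not tested.

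The call for ASPM was lost when any of the 4 Sal libraries, or S + D replicate 1, 2 or 3, was left out, and 2 genes were called without the unnumbered S + D library. Among the numbered libraries alone 0 genes were called (1.91% of all genes) at a median of -0.61, and DESeq2 called 8 (3.39%). Das replicate 3 is in neither group, but it enters the 72 h fit through the shared spread, the filter and the scaling. With it left out, 14 genes were called lower (2.58% of all genes), SPC25, ASPM, CENPE, CENPF, KNL1, KIF11, KIF18A, KIF23, HMMR, NCAPG, NCAPH, SMC2, BUB1B and SGO1. The filter then kept 16963 genes in place of 16682.

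**Figure D5:**
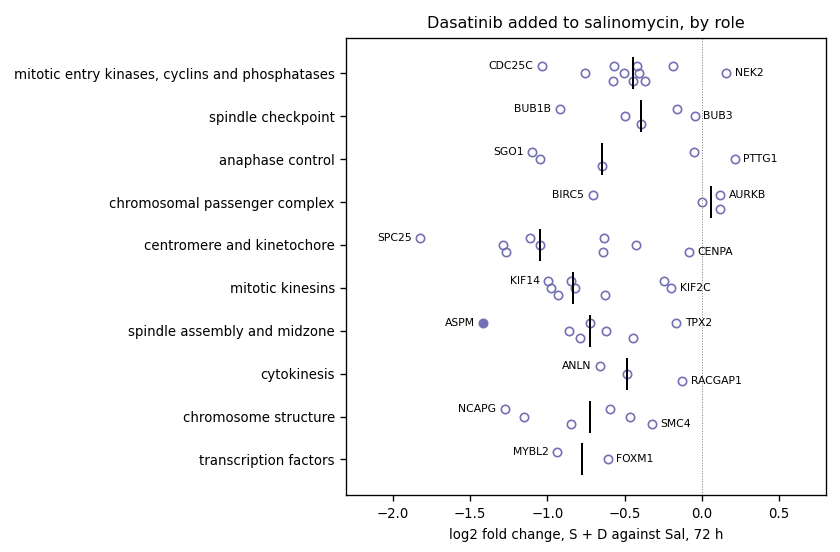
Each circle is 1 gene's log2 fold change for S + D against Sal at 72 h, in rows by role, with the lowest and highest gene of each role named, black bars at the medians and the 1 gene with an adjusted p under 0.01 filled. Most circles lie left of 0, and 3 of the 4 passenger complex genes lie at or just above it.

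Against Das alone at 72 h, S + D was lower in 58 of the 60 genes (17.7% of all genes), with a median of -2.31. BUB3 (0.04) and MAD2L1 (-0.34, adjusted p = 0.067) were not called. KIF20A had 81.7, 46.2, 55.5 and 201 CPM with Das and 20.4, 9.44, 9.03 and 9.96 CPM with S + D, a log2 fold change of -2.98 ± 0.44 SE, adjusted p = 4.5e-05, and even the lowest Das library was above the highest S + D library. An interaction term, where 0 stands for a combination equal to the sum of both single log2 responses, was called in 0 of the 60 genes at 24 h (0.0306% of all genes lower and 0 genes higher). Its median was 0.33, with 9 genes above 0 at an unadjusted p under 0.05 and 0 called by DESeq2. Among the numbered libraries alone 6 were called above 0, a count without its share of all genes. At 72 h the term was also called in 0 genes (4.09% of all genes lower and 3.43% higher), with a median of 0.16, 1 gene lower and 4 higher at an unadjusted p under 0.05, and 0 by DESeq2. Without Das replicate 3 the 72 h median was 0.58 and 5 of the 60 genes were above the sum, that is, fell by less than both responses added. That share is not far above the 6.25% of all genes. The 5 genes were PLK1 (1.60), PTTG1 (1.54), INCENP (1.25), TPX2 (0.94) and RACGAP1 (0.60). All comparisons with the control of a time point share the same 4 control libraries.

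Untreated cells also had less of these transcripts at 72 h than at 24 h, with a median of -0.64 and fold changes below 0 in all 60 genes. The summed level was 12719 ± 1179 CPM at 24 h and 8067 ± 265 CPM at 72 h (SD, n = 4). At an adjusted p under 0.01, 3 genes were called (0.76% of all 17227 genes tested), AURKA (-0.83 ± 0.16 SE, adjusted p = 0.0016), RACGAP1 (-0.64 ± 0.15 SE, adjusted p = 0.0064) and BUB3 (-0.38 ± 0.09 SE, adjusted p = 0.007), while 49 had an unadjusted p under 0.05. AURKA had 129.8, 164, 152 and 158 CPM at 24 h and 81.4, 93.5, 83.9 and 80.5 CPM at 72 h. A fit of the 8 control libraries alone, with their own smaller spread, called 52 genes (2.72% of all genes), the numbered libraries alone 11 (4.01%), and the count was 1 without replicate 1, 2 or 3 of either control group. The response to Sal, treated less control, was lower at 72 h than at 24 h in 56 genes (median -1.99; 13.7% of all genes), all but AURKA, BUB3, MAD2L1 and RACGAP1. For S + D it was lower in 46 genes (median -1.75; 10.1% of all genes), with SPC25 lowest at -3.25. For Das it was called in 0 genes in either direction (0.174% of all genes lower, 0.0522% higher; 0 by DESeq2), with a median of 0.41, 7 genes higher at an unadjusted p under 0.05, and a median of -0.01 without replicate 3.

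Genes outside the 60 that act in the same structures moved in part with them at 72 h. With Sal at 72 h 26.8% of all genes were called lower and 26.3% higher. Of 39 other spindle and division genes 36 were called lower with Sal and 1 higher (median -1.87), from the midbody kinase CIT (-3.07 ± 0.32, SE) to BORA, a cofactor of AURKA in activating PLK1 (0.92 ± 0.14). Of 31 other kinetochore and centromere genes 25 fell and 3 rose (median -0.95), from ZWINT (-3.44 ± 0.48) to DSN1, a subunit of the MIS12 complex (0.89 ± 0.17), with ZW10 (0.61) and MIS12 (0.58) the others that rose. Of 14 cohesin genes and regulators 7 fell and 3 rose, from ESCO2 (-2.28 ± 0.31), an acetyltransferase that secures cohesion in S phase, to its relative ESCO1 (1.47 ± 0.22).

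A list of the anaphase-promoting complex, which the listed CDC20 and UBE2C serve, had few genes called. It holds core subunits together with FZR1, a coactivator like CDC20, and UBE2S, a ubiquitin-conjugating enzyme like UBE2C. Of the 16 genes of this list 2 fell with Sal at 72 h, UBE2S (-1.53 ± 0.34) and the core subunit ANAPC7 (-0.999), and 4 rose, CDC26 (1.13 ± 0.29), ANAPC10 (0.86), ANAPC5 (0.68) and CDC23 (0.63), at a median of 0.14. The 4 of 16 that rose are close to the 26.3% of all genes called higher, and the 2 that fell are below the 26.8% called lower. Among 21 regulators of the MuvB, E2F and pocket protein families 12 fell and 4 rose with Sal (median -0.61). The lowest was E2F7 (-2.86 ± 0.45), followed by E2F2 (-2.47) and E2F1 (-2.24). Those that rose were LIN37 (1.10 ± 0.21), LIN52 (0.78), E2F4 (0.82) and RBL2 (0.63), 4 of 21 and so a smaller share than the 26.3% of all genes. Of 16 brakes on mitotic entry 7 fell and 2 rose (median -0.42), from PKMYT1 (-2.53 ± 0.47), a kinase that inhibits CDK1, to GADD45G (1.58 ± 0.36), with CDKN1A, the CDK inhibitor p21, at 1.12.

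DNA replication genes served as a comparison from the preceding phase of the cycle. With Sal at 72 h 27 of the 33 tested were called lower and 0 higher (median -1.24), from RRM2 (-3.56 ± 0.45), a subunit of ribonucleotide reductase, to POLA2 (0.02 ± 0.10). The median of the 60 mitotic genes was -2.57, a description of both lists with no test of the difference. With Das 19 of the 33 were lower at 24 h (6.88% of all genes) and 14 at 72 h (9.36%), or 29 at 72 h without replicate 3 (13.2%). With S + D 28 were lower at 24 h (16.5%) and 31 at 72 h (27.9%), at a median of -1.61 at 72 h.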

How the data were processed

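The study measured RNA of MDA-MB-468 cells in 32 libraries. Per the labels and methods, the authors sequenced single-end reads, used bcl2fastq 2.19, aligned them with STAR 2.5.2 to GRCh37, and used Cufflinks 2.1.1 and DESeq2. Raw read counts per gene were deposited, whole and not normalized, and how they were counted is not given in the sources used here. From these counts, edgeR 4.0.16 in R 4.3.3 with limma 3.58.1 fitted the 16 libraries of a time point together, or all 32 across time points (17227 genes), without a block, with TMM factors, filterByExpr at a minimum count of 10, quasi-likelihood F tests and adjustment after Benjamini and Hochberg. Fold changes carry SE from the F statistic. CPM use the TMM factors of all libraries, and log2 CPM a prior count of 2. Exon lengths and GRCh37 coordinates came from GENCODE. The test was checked on data simulated for Sal at 72 h (15748 genes). It called 44 of 46 genes lowered by 2.5 on the log2 scale, 27 of 48 lowered by 1 and 2 of 15556 unchanged genes. The simulated libraries were independent and few genes were changed. They held neither the shared deviation of the unnumbered libraries nor the broad shift with Sal, so the error rate in the real data is not shown.

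The members and lists were chosen with earlier results of these data known. Genes given in every library were 12 chosen by role (CDK1, CCNB1, PLK1, AURKB, BUB1, BUB3, CENPA, KIF20A, TPX2, TOP2A, MKI67 and FOXM1) and, within each role, the lowest and highest by Sal at 72 h; MAD2L1 and ASPM were added after their values were seen. Other lists are named by their lowest and highest gene and, where few, those that rose. UHRF1 and PECAM1 were not matched. At 24 h libraries of the same number deviated together in every pair (correlations of 0.16 to 0.69), mostly through the unnumbered libraries (0.61 to 0.69); among numbered libraries alone the median was 0.00. Alternatives were RLE factors, no filter, the block, DESeq2 1.42.0, fits of all libraries or of the groups compared, other cutoffs, leaving out each library and, added after seeing the data, the numbered libraries alone, a term for the unnumbered ones and, for S + D against Sal at 72 h, a 72 h fit without Das replicate 3. No pair of libraries was a duplicate, but some numbered pairs differed little. The chi-square per gene of the counts was 1.95 for replicates 2 and 3 of the 24 h control and 2.43 for those of S + D at 72 h. It was 51.1 to 64.1 for the unnumbered 24 h control against the numbered ones, and up to 121 between numbered libraries (Das 72 h, replicates 1 and 3). Fits of the numbered libraries alone thus rest in part on a narrow spread.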

Additional observations from a re-analysis of the deposited data

Results flagged for a closer look

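In groups of 4 libraries, 26 of 104 tested values stood apart from their group by Dixon's criterion, where chance gives about 1 in 20, and 25 of them belonged to unnumbered libraries. In the 24 h controls the unnumbered library was low in PLK1 (194 CPM), TPX2 (340), MKI67 (513) and FOXM1 (187), and with Sal at 24 h low in KIF20A (101) and TPX2 (195). It was high with Das at 24 h in CCNB1 (125) and AURKB (60.3), and with S + D at 24 h in CDK1 (91.7), CCNB1 (100.4), BUB1 (106), TOP2A (316) and the sum of the 60 genes (5329). With Sal at 72 h it was high in CDK1 (43.6), CCNB1 (37.2), BUB1 (36.7), CENPA (10.4), TPX2 (88.8), TOP2A (83.3) and the sum (2116), and with S + D at 72 h in CDK1 (33.8), CCNB1 (25.9), AURKB (9.94), KIF20A (20.4) and the sum (1520). The remaining value was MKI67 in replicate 3 of Das at 72 h (479 CPM).

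The response at 72 h differed from that at 24 h, by an interaction with time, in 56 genes with Sal and in 46 with S + D.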

How the results depend on the processing

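Counts are of the 60 genes called lower. Shares of all genes called are given above for only some of these settings. Without its share, a count shows how far it depended on the setting and is no result about the 60 genes. At an adjusted p under 0.05 they were 37 for Sal 24 h, 9 for S + D against Das 24 h, 32 for Das 72 h, 10 for S + D against Sal 72 h and 10 for control 72 h against 24 h. With the fold cutoff added they were 17 for S + D 24 h and 0 for Sal 24 h, Das 24 h, S + D against Sal or Das at 24 h, Das 72 h, S + D against Sal 72 h and the controls. Without the filter on low counts they were 1 for S + D against Das 24 h, 20 for Das 72 h and 9 for S + D against Sal 72 h. For the results in the order of those at 0.05, DESeq2 called 30, 9, 15, 8 and 5, and the replicate block 40, 10, 27, 5 and 8. At 72 h the unnumbered libraries deviated together (correlations of 0.53 to 0.63) and those of replicate 2 did so weakly (0.13 to 0.28), but not every pair of replicates 1 and 3 did (from -0.04), so the numbers were not taken as pairs there, and the block changed no other count by over 1.5 times. The term for the unnumbered libraries gave 49, 12, 17, 4 and 8. The numbered libraries alone gave 56 for Sal 24 h, 37 for S + D against Das 24 h, 6 off the sum at 24 h, 0 for S + D against Sal 72 h and 11 for the controls. All 32 libraries in 1 fit gave 0 for Sal 24 h, 21 for S + D against Sal 24 h, 0 for S + D against Das 24 h, 24 for Das 72 h and 8 for S + D against Sal 72 h. Only the groups compared gave 19 for S + D against Sal 24 h, 0 for Das 72 h, 5 for S + D against Sal 72 h and 52 for the controls. RLE factors moved no count. The causes were not tested.

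Leaving out 1 library of the groups compared at a time gave 2 to 11 for Sal 24 h, 53 to 57 for Das 24 h, 57 to 59 for S + D 24 h, 25 to 53 for S + D against Sal 24 h and 1 to 5 against Das 24 h. At 72 h it gave 59 for Sal and for S + D, 0 to 50 for Das, 0 to 2 for S + D against Sal (14 when Das replicate 3, in neither group, was left out of the 72 h fit), 57 to 58 against Das and 0 to 5 off the sum (0 at 24 h). For the controls it gave 1 to 2, and for responses lower at 72 h 55 to 56 with Sal, 43 to 51 with S + D and 0 with Das. Of the genes given in every library and tested under each alternative, only BUB3 at 72 h changed its sign, between values near 0. Its log2 fold change with S + D was 0.024 without the filter, 0.0045 with all 32 libraries and 0.017 among the numbered ones, and with Das 0.0096 among the numbered ones. Leaving out 1 library gave -0.014 to 0.093 with Sal, -0.10 to 0.0045 with Das and -0.058 to 0.048 with S + D.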
